A study of Gallus gallus with 24 samples.

Results

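MGST1, GSTA2 and GPX3 are 3 chicken genes whose protein products use glutathione. They were chosen by name, with earlier results of these data in view, and are followed here through 6 ages for the difference between a fat line and a lean line of broiler chickens. They are 3 of 6428 named genes among the 15027 features fitted, and they are carried by 5 of the 19200 spots of the array: 1 cDNA clone for MGST1, 2 clones for GSTA2 and 2 for GPX3. Because the line difference and its course with age were used to choose them, those values are given as a description with standard errors and without a test.

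Glutathione is the main small thiol of the cell. Glutathione transferases join it to reactive, electrophilic compounds, among them aldehydes that form when lipids are oxidised, and glutathione peroxidases spend it to reduce hydrogen peroxide and lipid hydroperoxides. MGST1 encodes a transferase of the endoplasmic reticulum and outer mitochondrial membrane that also has peroxidase activity, GSTA2 encodes a cytosolic alpha-class transferase, and GPX3 encodes a secreted selenium-dependent peroxidase of blood plasma, which adipose tissue also makes in humans and mice.

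The tissue was abdominal fat of cockerels at 1, 3, 5, 7, 9 or 11 wk of age. The fat (FL) and lean (LL) lines had been selected in opposite directions on the weight of this depot for 7 generations, under standard broiler rearing, and both lines share the broiler background, with no unselected control line among these samples. Each of 24 arrays held labelled cDNA of 1 FL and 1 LL bird of the same age, 4 arrays per age, with FL in the Alexa 647 channel on replicates 2 and 4 and in the 555 channel on replicates 1 and 3. A value is the log2 ratio between the lines within an array, so it gives a difference and no level in either line. In whole tissue, fewer cells of a type and less RNA per cell cannot be told apart.

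The direction of the ratios was not stated. The sample titles name FL first, so a positive value is read as higher in FL, an assumption that rests on this word order alone. If LL was the numerator instead, all signs given here reverse. Whether the ratios were instead formed by dye is a larger limit, because a mean over both orientations would then mix both directions. Over all features, arrays of the same dye orientation had a mean correlation of 0.213 and arrays of opposite orientation a mean of -0.17. Values with the arrays of one orientation turned are therefore given beside the results. Array medians lay between -0.0561 and 0.0189 and weights estimated by limma between 0.404 and 3.47. On 2 arrays, 1 wk replicate 2 and 5 wk replicate 1, liver genes stood high, and values of the 3 genes are given without them as well. On 1 wk replicate 4 liver genes stood low (median -0.435, 2 of 27 above 0), and this array was kept in those fits.

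The fitted line difference of MGST1 passed from above 0 at 1 wk to below 0 at 11 wk. At 11 wk its 4 dye-corrected arrays ran from -0.78 to 0.01, with 2 above 0. GSTA2 was above 0 at 1 wk, less so at 3 wk, and near 0 afterwards. GPX3 was near 0 at 1 wk and had fitted values above 0 at every later age, highest at 3 wk and at 11 wk. With the ratios turned by dye orientation, MGST1 (-0.04) and GSTA2 (-0.08) no longer stood above 0 at 1 wk. The slope per week was then -0.0364 for MGST1 and -0.00635 for GSTA2, and GPX3 lay below 0 at every age.

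MGST1 had deposited log2 ratios at 1 wk of 0.31, 0.56, 0.88 and 0.58 on replicates 1 to 4. At 3 wk they were 0.32, -0.09, 0.42 and 0.40. At 5 wk they were 0.44, -0.42, 0.12 and 0.09. All 4 arrays lay above 0 at 1 wk and 3 of 4 did so at 3 wk and at 5 wk. The ratios at 7 wk were -0.05, 0.07, -0.15 and 0.03. At 9 wk they were 0.46, -0.89, 0.44 and -1.07. At 11 wk they were -0.62, -0.15, 0.17 and -0.92. The 9 wk arrays split by dye orientation, with a mean of 0.45 where FL was in the 555 channel and -0.98 where it was in the 647 channel, and the range at 11 wk overlapped that of every age from 3 wk on.

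After a dye term was fitted, the MGST1 line difference was 0.55 (SE 0.208) at 1 wk, a 1.46-fold ratio. It was 0.33 (SE 0.165) at 3 wk, 0.09 (SE 0.215) at 5 wk and 0.06 (SE 0.21) at 7 wk. It was -0.12 (SE 0.198) at 9 wk and -0.23 (SE 0.132) at 11 wk. The fitted values fell in the order of age, but no step between neighbouring ages exceeded the residual SD of 0.415. The difference averaged over ages 1, 3 and 5 wk minus that over 7, 9 and 11 wk was 0.42 (SE 0.156), and the slope was -0.075 per week (SE 0.0212). The mean over the 6 ages was 0.11 (SE 0.0778). These fits weighted the arrays. Without weights MGST1 stood at -0.02 at 7 wk, -0.26 at 9 wk and -0.38 at 11 wk, with a mean over ages of 0.04 and an early minus late difference of 0.52. The residual SD of MGST1 was larger than that of 92.6% of features, whose median was 0.208. With the ratios turned by dye orientation, MGST1 stood at -0.04 at 1 wk and -0.63 at 9 wk, and the early minus late difference was 0.20.

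**Figure D1:**
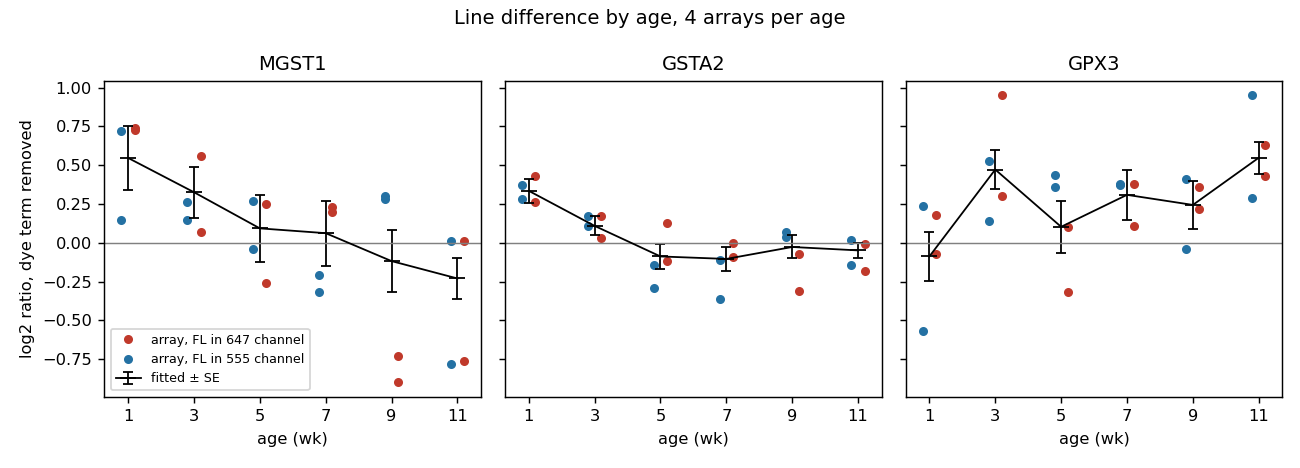
Dye-corrected log2 ratio of MGST1, GSTA2 and GPX3 (y axis) against age in weeks (x axis), 1 point per array coloured by the channel that held FL, with the fitted value ± SE as a black line. MGST1 falls from 0.55 at 1 wk to -0.23 at 11 wk, GSTA2 from 0.33 to -0.05, and GPX3 goes from -0.09 to 0.55.

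GSTA2 had deposited ratios, averaged over its clones, of 0.44, 0.35, 0.35 and 0.18 at 1 wk. At 3 wk they were 0.19, 0.09, 0.25 and -0.04. At 5 wk they were -0.07, -0.19, -0.22 and 0.05. The 1 wk arrays were all above 0, while 3 of 4 arrays at 5 wk were below it. At 7 wk the ratios were -0.29, -0.16, -0.04 and -0.07. At 9 wk they were 0.12, -0.14, 0.14 and -0.38. At 11 wk they were -0.07, -0.08, 0.09 and -0.26. All 4 arrays of 7 wk were below 0, and those of 9 wk again split by orientation. At 9 wk clone 1 had 0.01, -0.41, 0.14 and -0.41, while clone 2 had 0.23, 0.14, 0.14 and -0.35. The value of 1 wk replicate 4 rests on clone 2 alone, since clone 1 had no value there.

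The fitted GSTA2 difference was 0.33 (SE 0.0775) at 1 wk, a 1.26-fold ratio, and 0.11 (SE 0.0618) at 3 wk. It was -0.09 (SE 0.0804) at 5 wk, -0.10 (SE 0.0785) at 7 wk, -0.03 (SE 0.074) at 9 wk and -0.05 (SE 0.0493) at 11 wk. The steps from 1 to 3 wk (-0.23) and from 3 to 5 wk (-0.20) exceeded the residual SD of 0.127, and the later ages did not differ from their neighbours beyond it. That SD describes single arrays, and the steps were not tested. Clone 2 alone stood at 0.208, 0.128 and 0.001 at 1, 3 and 5 wk, and neither step exceeded its residual SD of 0.167. Averaged over its clones, GSTA2 had an early minus late difference of 0.18 (SE 0.0581), a slope of -0.033 per week (SE 0.00792) and a mean over ages of 0.03 (SE 0.029). Without array weights GSTA2 stood at -0.07 at 9 wk and -0.08 at 11 wk, with a mean over ages of 0.01. As a mean of 2 clones, GSTA2 had a residual SD above that of 9.59% of features, many of which are single spots. Its clones taken singly had residual SDs of 0.16 and 0.167. Without the 1 wk arrays the early minus late difference was 0.07 and the slope -0.0124. With the ratios turned by dye orientation, GSTA2 stood at -0.08 at 1 wk and its early minus late difference was 0.06.

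GPX3 had deposited ratios, averaged over its clones, of -0.29, -0.09, 0.52 and -0.35 at 1 wk. At 3 wk they were 0.41, 0.67, 0.80 and 0.02. At 5 wk they were 0.71, -0.18, 0.64 and -0.60. The 3 wk arrays were all above 0, and those of 5 wk were high with FL in the 555 channel and low with FL in the 647 channel. This split at 5 wk was that of clone 1, with 1.66, -0.58, 0.97 and -1.06. Clone 2 had -0.24, 0.22, 0.31 and -0.14 there. At 7 wk the averaged ratios were 0.65, 0.10, 0.65 and -0.17. At 9 wk they were 0.69, -0.06, 0.23 and 0.08. At 11 wk they were 1.22, 0.35, 0.56 and 0.15. Every array of 11 wk lay above 0, and replicate 1 was the highest of all 24.

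The fitted GPX3 difference was -0.09 (SE 0.16) at 1 wk and 0.47 (SE 0.128) at 3 wk, a 1.39-fold ratio. It was 0.10 (SE 0.166) at 5 wk, 0.31 (SE 0.162) at 7 wk, 0.24 (SE 0.153) at 9 wk and 0.55 (SE 0.102) at 11 wk, a 1.46-fold ratio. The steps from 1 to 3 wk (0.56) and from 3 to 5 wk (-0.37) exceeded the residual SD of 0.314, which describes single arrays, and were not tested. Clone 2 alone stood at -0.008, 0.207 and 0.033 at 1, 3 and 5 wk, and neither step exceeded its residual SD of 0.255. The 5 wk value averaged over clones hangs on single arrays: it was 0.36 without 5 wk replicate 4 and -0.16 without 5 wk replicate 3. GPX3 had the highest mean over ages of the 3 genes, 0.26 (SE 0.06), and 20 of 24 arrays lay above 0 after dye correction, against 16 for MGST1 and 12 for GSTA2. Its early minus late difference was -0.20 (SE 0.12) and its slope 0.039 per week (SE 0.0164). Both shrank without the 1 wk arrays, to -0.09 and 0.0168. The 1 wk value of GPX3 itself ran from -0.27 to 0.13 when 1 array was left out. With the ratios turned by dye orientation, GPX3 stood at -0.15 at 3 wk, -0.37 at 7 wk and -0.25 at 11 wk, its mean over ages was -0.29 and its early minus late difference 0.01.

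After dye correction, all 4 arrays of 1 wk lay on the same side of 0 for MGST1 and GSTA2, beside 8.27% of all features. At 3 wk all 4 did so for the 3 genes, beside 18% of features. At 7 wk they did so for GSTA2, below 0, and GPX3, above 0, beside 6.16%, and at 11 wk for GPX3, beside 13%. At 5 wk (7.37% of features) and at 9 wk (17.1%) each gene had arrays on both sides. At the single ages, the line difference was called (adjusted p of 0.05) for 0% of features at 1, 5, 9 and 11 wk, 1.21% at 3 wk and 0.00665% at 7 wk, the latter below 0. These shares come from the contrasts that chose the genes, and nothing is read from them.

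The arrays of 1 wk and of 11 wk after dye correction did not overlap for any of the 3 genes, a separation shown by 2.44% of all features. Arrays of 1 wk and 3 wk were separate for GSTA2 alone among the 3, a separation shown by 1.74% of all features. The genes were chosen on this age course, so nothing is read from either share. As deposited, GPX3 overlapped, from -0.35 to 0.52 at 1 wk and from 0.15 to 1.22 at 11 wk. GSTA2 as deposited overlapped between 1 wk (lowest 0.18) and 3 wk (highest 0.25). Separation was not counted with the ratios turned by dye orientation. Of all 15027 features, 0% passed an adjusted p of 0.05 (limma, Benjamini-Hochberg) for the early minus late difference, 0% for the trend and 0% for the interaction of line with age. At an unadjusted p of 0.05, 365 features (2.43%) passed for early minus late, 441 (2.93%) for the trend and 322 (2.14%) for the interaction. These counts concern the array as a whole, and no outcome is drawn from them for the 3 genes. They rest on the ratios as deposited: turned by dye orientation, 248 features were called for early minus late, 411 for the trend and 868 for the interaction.

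The dye term did not enter the choice of the genes and was tested. GPX3 had a dye term of -0.28 (SE 0.0574, adjusted p = 0.00107, limma with Benjamini-Hochberg adjustment over all features), so arrays with FL in the 555 channel read 0.554 higher than the others. GSTA2 had a dye term of -0.07 (SE 0.0278, adjusted p = 0.0459), a gap of 0.147 between orientations. MGST1 had a dye term of -0.16 (SE 0.0745) and did not pass (adjusted p = 0.0984). It passed without 11 wk replicate 1 (adjusted p = 0.0499) and without 11 wk replicate 2 (adjusted p = 0.0441). In the model used, 2 of 3 genes were thus called, beside 33.6% of all features and 18% with a dye term below 0. When the ratios were turned by dye orientation, features called for the dye term went from 5043 to 18 and those called for the mean over ages from 2 to 5688, so the dye term and the line difference trade places with the direction of the ratios. The GSTA2 call was lost in 14 of 24 fits that left out 1 array, and without array weights (adjusted p = 0.119); the GPX3 call was kept in all 24. The GPX3 call was lost with the spot names as given (-0.07, adjusted p = 0.142). With the ratios turned by dye orientation, the term fitted as dye holds the former line difference, 0.29 for GPX3. That setting therefore does not test the dye term given here.

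**Figure D2:**
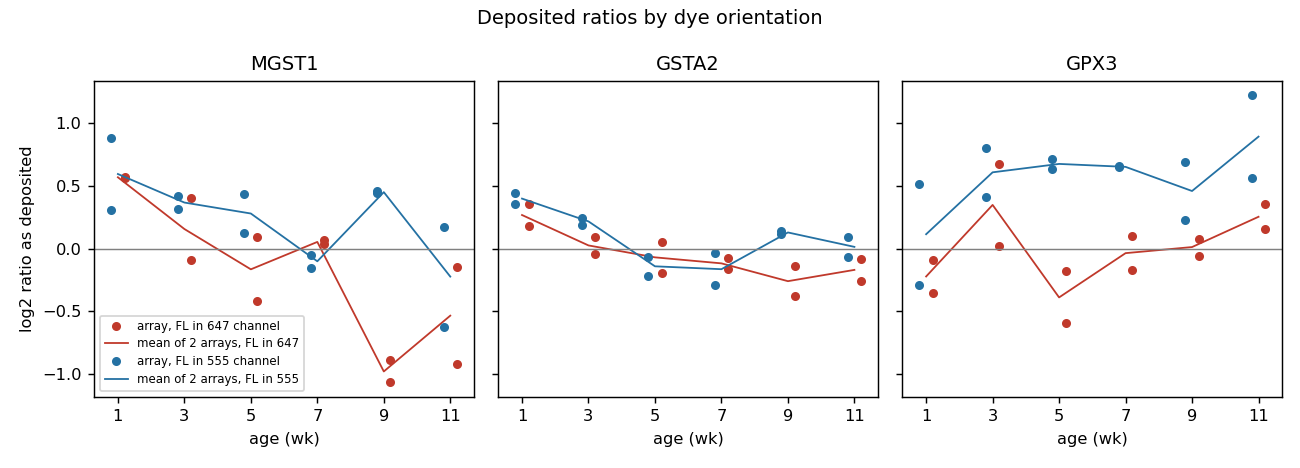
Deposited log2 ratio (y axis) against age in weeks (x axis) for each array, coloured by the channel that held FL, with lines through the means of the 2 arrays per orientation. Averaged over its clones, GPX3 lies higher with FL in the 555 channel at every age, and MGST1 parts at 9 wk, at 0.45 and -0.98. GPX3 clone 2 alone, not drawn here, had no higher mean with FL in the 555 channel at 5 wk or 9 wk.

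The clones of one gene differed in size. For GSTA2, clone 1 gave 0.515 (SE 0.106) at 1 wk and clone 2 gave 0.208 (SE 0.095). At 7 wk clone 1 stood at -0.238 (SE 0.101) and clone 2 at 0 (SE 0.104). Both clones were above 0 at 1 and 3 wk, but clone 1 alone was below 0 at 5 wk and at 9 wk. Their correlation over the 23 arrays with both values was 0.46 and 0.21 once age means were removed. For GPX3, clone 1 gave 0.738 at 3 wk and 0.787 at 11 wk, while clone 2 gave 0.207 and 0.303. Both GPX3 clones were lowest at 1 wk and highest at 11 wk, and their means over ages were 0.408 and 0.135. Over 24 arrays they correlated at 0.31, which fell to 0.06 without the 2 farthest arrays. The GPX3 dye term was called for clone 1 (adjusted p = 0.00108) and not for clone 2 (adjusted p = 0.0674), beside 33.9% of single spots, and the difference between clones was not tested.

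**Figure D3:**
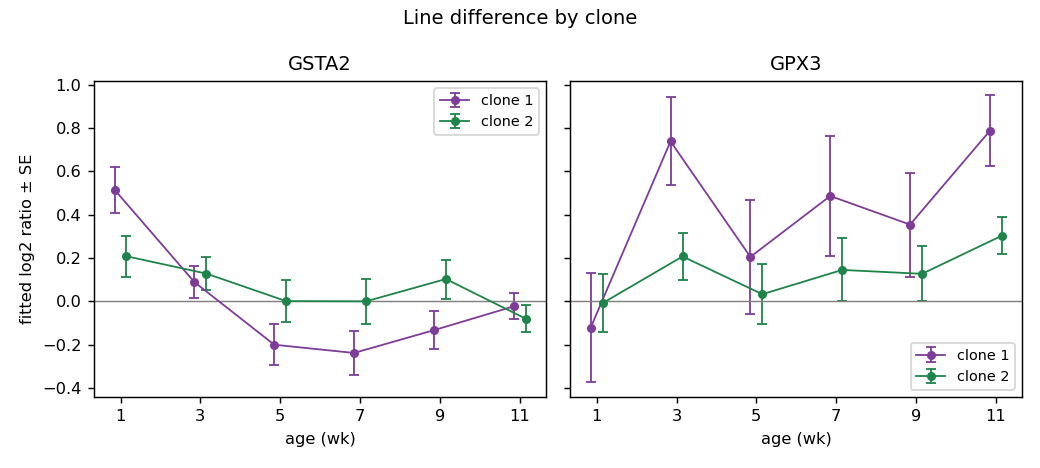
Fitted log2 ratio ± SE (y axis) against age in weeks (x axis) for each clone of GSTA2 and GPX3. Clone 1 of GSTA2 runs from 0.515 at 1 wk to -0.238 at 7 wk, and clone 1 of GPX3 lies above clone 2 from 3 wk on.

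Across the 24 arrays the dye-corrected ratios of MGST1 and GSTA2 correlated at 0.70, and at 0.54 within ages. GPX3 correlated at -0.33 with MGST1, and at -0.11 within ages. With GSTA2 it correlated at -0.40, and at -0.35 within ages. These are descriptions over arrays that share a bird pair for all genes. Among 6399 named genes, the ones most like MGST1 by the same measure were SAA, the acute-phase protein serum amyloid A (0.77), BST1, an ADP-ribosyl cyclase of the cell surface (0.75), and LOC426514 (0.73). Those most like GSTA2 were LOC426514 (0.68), SELPLG, a selectin ligand of leukocytes (0.68), and CYP2J22, a cytochrome P450 (0.67). Those most like GPX3 were RGS5, a regulator of G-protein signalling found in pericytes of mammals (0.76), CTSD, a lysosomal protease (0.74), and CDT1, a DNA replication licensing factor (0.71).

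GSTA2 lies in a run of related transferase genes. In the RefSeq annotation of bGalGal1.mat.broiler.GRCg7b it follows GSTA3, LOC100859645 and LOC395611, with TMEM14A on its other side, and LOC396380 (synonym GSTAL3) lies on the far side of GSTA3. Long cDNA spots may bind transcripts of such close relatives, so values of the individual genes are uncertain, and this was not tested. GSTA3 had 0.33 (SE 0.163) at 1 wk, 0.11 at 3 wk, 0 at 5 wk and -0.36 (SE 0.165) at 7 wk, and its ratios correlated with those of GSTA2 at 0.64 over 24 arrays. For LOC396380, the fitted values were 0.37 to 0.69 at every age, and 20 of 24 arrays lay above 0. Its mean over ages was 0.53 (SE 0.104) and did not pass (adjusted p = 0.07), beside 0.0133% of features called. Leaving out a single array brought its adjusted p to 0.0374 (1 wk replicate 2), 0.047 (replicate 3 of that age) and 0.0104 (5 wk replicate 2). It was called in these 3 of 24 omissions alone. Its mean was lowest, 0.48, without 5 wk replicate 1, on which liver genes stood high, and highest, 0.57, without 5 wk replicate 2. With the ratios turned by dye orientation its mean was -0.14.

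**Figure D4:**
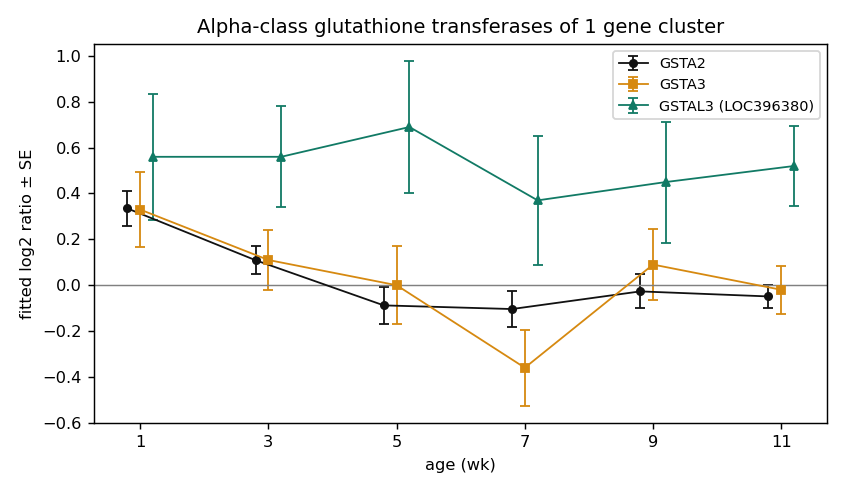
Fitted log2 ratio ± SE (y axis) against age in weeks (x axis) for GSTA2, GSTA3 and LOC396380 (GSTAL3), genes of 1 run of alpha-class transferases; the set was picked for plotting after its values were seen. GSTA2 and GSTA3 both stand at 0.33 at 1 wk, and LOC396380 stays between 0.37 and 0.69.

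The wider pathway was read from 6 lists of 147 genes, of which 85 were measured. None was called by limma for early minus late, for the trend or for the interaction, beside 0% of all features for each. None was called for the mean over ages, beside 0.0133%. At an unadjusted p of 0.05, 4 of 85 (4.71%) passed for early minus late, beside 2.43% of all features. For the trend 5 (5.88%) passed, beside 2.93%, and for the interaction 3 (3.53%), beside 2.14%. For the mean over ages 5 (5.88%) passed, beside 10.3%. Turning the ratios by dye orientation gave 31 list genes called for the mean over ages, beside 5688 of all 15027 features. It gave 5 for the interaction (868 of all features), 1 for early minus late (248) and 1 for the trend (411). Nothing is read from these counts about the lists. At the single ages, with the ratios as deposited, the counts at an unadjusted p of 0.05 were 3 of 85 at 1 wk (2.2% of all features), 13 at 3 wk (11.9%), 3 at 5 wk (2.18%), 5 at 7 wk (4.19%), 2 at 9 wk (6.65%) and 8 at 11 wk (6.31%). For the dye term 27 of 85 (31.8%) were called, 9 above and 18 below 0. Beside them, 33.6% of all features were called, 15.6% above and 18% below 0. At an unadjusted p of 0.05, 31 (36.5%) passed, beside 44.1% of all features. For early minus late, 53 of 85 lay above 0 with a median of 0.014, against 45.8% of all features and a median of -0.00788. Among 9 transferases, 6 lay above 0, with GSTA3 highest (0.24, SE 0.122) and HPGDS, a prostaglandin D synthase, lowest (-0.23, SE 0.204). Among 11 genes of peroxide removal, 8 lay above 0, with GPX4, the peroxidase of membrane lipid hydroperoxides, highest (0.21, SE 0.0713, adjusted p = 1) and PRDX1, a peroxiredoxin, lowest (-0.15, SE 0.15). GPX3 stood at -0.20 for this difference, and its contrast with GPX4 was not tested.

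Among 21 genes of glutathione synthesis and turnover, 11 lay above 0, from GGT5, a gamma-glutamyltransferase (-0.15, SE 0.0762), to GCLM, the modifier subunit of glutamate-cysteine ligase (0.16, SE 0.0967). Among 12 thioredoxin and methionine sulfoxide reductase genes, 7 lay above 0, and TXNDC12 was highest (0.22, SE 0.118). Among 19 genes of the NRF2 pathway, 12 lay above 0, from AKR1B1 (-0.13, SE 0.161) to AKR1B10 (0.14, SE 0.0777), both aldo-keto reductases. Among 13 selenoprotein and selenium-handling genes, 9 lay above 0, from SEPSECS, which makes selenocysteinyl-tRNA (-0.12, SE 0.0947), to PRXL2A (0.31, SE 0.167). For the mean over ages, where GPX3 stood at 0.26, SESN1, a sestrin, had 0.18 (SE 0.0714), PGD, which makes NADPH, 0.08 (SE 0.0462), and NFE2L2, which encodes NRF2, 0.08 (SE 0.0455). PRDX4 had 0.04 and PRXL2A 0.15. The lowest were SELENOF (-0.15), GLRX3 (-0.11), ABCC2 (-0.09), MSRB1 (-0.07), SOD3 (-0.06) and HPGDS (-0.03). This order holds for the ratios as deposited. Turned by dye orientation, the mean over ages was -0.26 for SESN1 (adjusted p = 0.00969), -0.24 for PRXL2A (adjusted p = 0.02), -0.05 for PGD and 0.14 for MSRB1 (adjusted p = 0.00501). ABCC2 (-0.31), GLRX3 (-0.24), HPGDS (-0.40), SELENOF (-0.26) and PRDX4 (0.16) kept their side and were called there, with adjusted p from 0.000192 to 0.00288. In that setting 5688 of all 15027 features were called for the mean over ages.

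With the ratios as deposited, 1 of the 85 was called for a line difference: MSRB1, a selenium-dependent methionine sulfoxide reductase, at 3 wk. It was below 0 there, at -0.30 (SE 0.0735, adjusted p = 0.0493, limma), with 4 of 4 arrays below 0 after dye correction and 3 of 4 as deposited, beside 0.978% of features called below 0 at 3 wk. The call was kept in 8 of 24 fits that left out 1 array and lost without array weights (adjusted p = 0.493). Turned by dye orientation, MSRB1 stood at 0.03 at 3 wk, and 2, 3, 7, 9, 8 and 13 list genes were called at the 6 ages in order. Of all 15027 features, 524, 679, 1002, 2683, 942 and 1969 were called at those ages. GPX3, also a selenoprotein, stood at 0.47 at 3 wk with the ratios as deposited.

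Markers of other cells were set beside the 3 genes array by array. The median of 27 liver genes was 0.896 on 1 wk replicate 2, with 24 of 27 above 0, 0.506 on 5 wk replicate 1 and -0.435 on 1 wk replicate 4. GSTA2, which liver expresses strongly in mammals, had dye-corrected ratios of 0.43, -0.14 and 0.26 on those arrays. Over 24 arrays the liver median correlated at 0.09 with MGST1, 0.13 with GSTA2 and 0.06 with GPX3 by Pearson's r, and at -0.23, -0.27 and 0.04 by Spearman's rho. The next values leave out both arrays on which the liver median was high and keep 1 wk replicate 4, on which it was low. GSTA2 then stood at 0.32 at 1 wk with an early minus late difference of 0.19, and MGST1 at 0.39 and 0.34. GPX3 stood at -0.27 at 1 wk and -0.06 at 5 wk, with an early minus late difference of -0.32 and a mean over ages of 0.21.

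The median of 16 adipocyte markers correlated with MGST1 at 0.58 over the arrays and 0.44 within ages, and with GSTA2 at 0.41 and 0.01. The median of 7 erythrocyte markers correlated with GSTA2 at -0.42, and at -0.32 within ages. The adipocyte median ran from -0.18 to 0.66 on the 1 wk arrays and from -0.23 to 0.14 on those of 11 wk. The median of 10 macrophage markers correlated with GPX3 at 0.60, and at 0.52 within ages, and ran from -0.22 to 0.01 at 1 wk, from -0.13 to 0.40 at 3 wk and from -0.05 to 0.20 at 11 wk. These pairs were singled out among 21 of list and gene after their values were seen, and the part of such cells in the results was not tested.

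**Figure D5:**
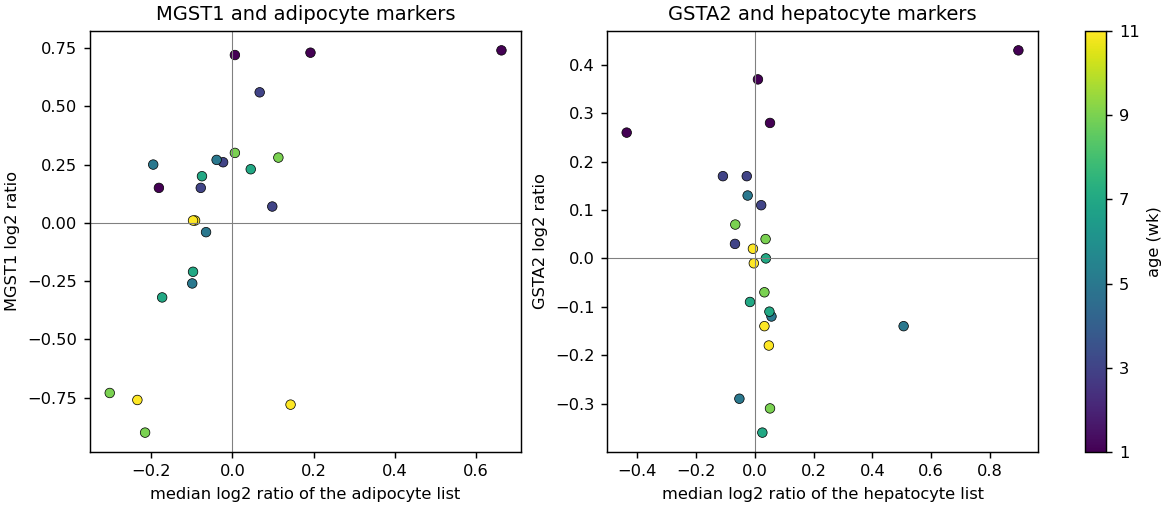
Dye-corrected log2 ratio of MGST1 against the median ratio of the adipocyte list (left) and of GSTA2 against that of the hepatocyte list (right), 1 point per array, coloured by age in weeks. MGST1 and the adipocyte median correlate at 0.58, while the 2 arrays with the highest liver medians hold GSTA2 at 0.43 and -0.14.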

How the data were processed

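The values were log2 ratios deposited by the authors, with no further normalization here. For software, limma (3.4.5) and R (2.11.1) are listed, per the submitters' processing notes. How background and dye bias were handled, and which line was divided by which, is not given in the sources used here. Scanner intensities were not used, so precision is limited by the number of arrays. The platform annotation gave spot names after row and column were exchanged, and RefSeq held 98.6% of named spots. Spots of 1 symbol were averaged, 123 spots of 2 control clones were left out, and a feature needed a value on 3 of 4 arrays at each age. On 1 wk replicate 4, 160 spots had no value.

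One limma 3.58.1 model (R 4.3.3), with array weights (which no label states, and which were put in the design through a misreading of the study's description), held 6 age means and 1 dye term, with Benjamini-Hochberg adjustment over 15027 features. The interaction was tested across all ages. The model was tried on simulated data whose line differences were constant over the ages. That trial cannot show whether changes with age would be found, and it did not cover ratios formed by dye. The members and lists were chosen with earlier results of these data known, and list symbols were matched through RefSeq synonyms by a rule changed after values had been seen. Genes were named as the extremes of each list for the mean and for early minus late, any list gene called, and the 3 most like each member. Replicates are separate birds per the design text. Same-numbered arrays of different ages had a mean correlation of -0.06 (60 pairs, 6 over 0.1), and differently numbered ones 0.02 (180 pairs, 56 over 0.1). Same-numbered arrays also share a dye orientation. Whether the dye term was taken off first is not stated here, so these values cannot be set beside the 0.213 for arrays of one orientation. The numbers were not taken as a pairing.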

Additional observations from a re-analysis of the deposited data

Results flagged for a closer look

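Among 18 groups of 4 arrays (3 genes at 6 ages), 2 held an array far from the other three, and chance alone gives about 1 in 20 groups. For MGST1 at 1 wk, replicate 1 had a dye-corrected log2 ratio of 0.15 while the others were 0.72 to 0.74. For GPX3 at 7 wk, replicate 4 had 0.11 while the others were 0.37 to 0.38. The rule was applied to dye-corrected ratios only. As deposited, replicates 1 to 4 were 0.31, 0.56, 0.88 and 0.58 for MGST1 at 1 wk. For GPX3 at 7 wk they were 0.65, 0.10, 0.65 and -0.17, so both flags depend on the dye correction. GSTA2 had every deposited ratio above 0 at 1 wk and below 0 at 7 wk, with fitted differences of 0.33 and -0.10. After dye correction GSTA2 was above 0 on every array of 3 wk (fitted 0.11) and above 0 on 0 arrays of 7 wk. All 4 dye-corrected arrays lay on one side of 0 for 8.27% of all features at 1 wk, 18% at 3 wk and 6.16% at 7 wk. The share with opposite sides at 2 ages was not counted. Replicate 4 of 7 wk stood at -0.00 after dye correction, and clone 2 alone had deposited ratios of -0.43, 0.05, 0.07 and 0.12 at 7 wk. These values come from the contrasts that chose the gene, and neither difference between ages was tested.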

How the results depend on the processing

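Every value here is a log2 ratio, a slope per week or a count of features or pathway list genes called at an adjusted p of 0.05, and the cause of each change was not tested. Under settings other than leaving out 1 array, 136 of 143 values held for MGST1, 123 of 153 for GSTA2 and 137 of 153 for GPX3. Held means within the replicate spread or, for the dye term, of the same sign and on the same side of the test. That spread is the gene's own residual SD, scaled to each contrast. It was 0.415 for MGST1, 0.127 for GSTA2 and 0.314 for GPX3, so the tallies do not rank the genes. MGST1 at 3 wk, 0.33 in the model used, counted as held at 0.01 with the ratios turned by the dyes.

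With the ratios turned by the dyes, MGST1 was -0.04 at 1 wk, -0.63 at 9 wk, -0.16 in the mean over ages and 0.03 in the dye term. GSTA2 was -0.08 at 1 wk, -0.08 at 3 wk, 0.07 at 5 wk, -0.16 at 9 wk, -0.06 in the mean, 0.06 early minus late, -0.00635 in the slope and 0.01 in the dye term. GPX3 was -0.15 at 3 wk, -0.56 at 5 wk, -0.37 at 7 wk, -0.27 at 9 wk and -0.25 at 11 wk. It was -0.29 in the mean, -0.00962 in the slope and 0.29 in the dye term. In this setting the dye term holds the former line difference and the mean holds the former dye term. Features called were 524 at 1 wk, 679 at 3 wk, 1002 at 5 wk, 2683 at 7 wk, 942 at 9 wk, 1969 at 11 wk, 5688 in the mean, 248 early minus late, 411 in the slope, 18 in the dye term and 868 in the interaction. Pathway list genes called were 2, 3, 7, 9, 8 and 13 at the 6 ages, 31 in the mean, 1 early minus late, 1 in the slope, 1 in the dye term and 5 in the interaction. The mean turned to -0.14 for LOC396380, -0.05 for PGD, -0.26 for SESN1 (adjusted p = 0.00969), 0.14 for MSRB1 (adjusted p = 0.00501) and -0.24 for PRXL2A (adjusted p = 0.02). Early minus late turned to -0.14 for GCLM, -0.04 for AKR1B10 and 0.01 for AKR1B1, and MSRB1 at 3 wk to 0.03.

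With the names as given, MGST1 was -0.01 at 1 wk, 0.02 early minus late and -0.00361 in the slope. GSTA2 was 0.01 at 1 wk, -0.03 at 3 wk, 0.11 at 7 wk, 0.08 at 11 wk, -0.10 early minus late and 0.00875 in the slope. GPX3 was 0.05 at 3 wk, -0.06 at 11 wk, 0.04 in the mean, -0.00254 in the slope and -0.07 in the dye term (adjusted p = 0.142), and 2 list genes were called at 3 wk. Early minus late turned to -0.01 for GPX4, 0.09 for PRDX1, -0.11 for GCLM, -0.03 for TXNDC12, -0.08 for AKR1B10 and 0.10 for SEPSECS. The mean turned to -0.06 for PRDX4, 0.03 for SOD3, -0.02 for PGD, -0.05 for SESN1, 0.01 for MSRB1, -0.07 for NFE2L2 and 0.12 for ABCC2, and MSRB1 at 3 wk to 0.04.

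With a replicate block in place of the dye term, early minus late was 0.43 for MGST1, 0.19 for GSTA2 and -0.16 for GPX3. The GSTA2 dye term under this block was -0.08 (adjusted p = 0.0513), and features called were 0 at 7 wk, 1 at 11 wk and 0 in the mean. The replicate numbers were not taken as a pairing in the model used, and the block changed no other call of the members.

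Features called at 3 wk, 182 in the model used, were 5 with no dye term, 0 with no array weights, 3 with arrays scaled to one spread, 2 with print blocks centred and 290 without both arrays with high liver genes. List genes called at 3 wk were 0 under the first 4 of these. Features called at 7 wk were 0 with no dye term, scaled arrays, print blocks centred and clone 1 alone, and 2 without the liver-high arrays. At 11 wk they were 7 with arrays centred and with complete features, 1 with scaled arrays, print blocks centred and clone 1 alone, and 5 without the liver-high arrays. In the mean they were 1 with no dye term, 0 with no weights and with print blocks centred, 11 without the liver-high arrays and 4 with clone 1 alone.

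The GSTA2 dye term was -0.06 without weights (adjusted p = 0.119), -0.07 with arrays centred (0.0579), -0.07 with print blocks centred (0.082) and -0.03 for clone 2 (0.479). By clone, GSTA2 was 0.51 and 0.21 at 1 wk, -0.24 at 7 wk for clone 1 and 0.10 at 9 wk for clone 2. GPX3 was 0.41 and 0.13 in the mean, and -0.12 in the dye term for clone 2 (0.0674). The HPGDS mean turned to 0.01 without weights, 0.06 with print blocks centred and 0.08 without the 3 wk arrays. The SOD3 mean turned to 0.01 with print blocks centred, and MSRB1 early minus late to 0.03 without the 3 wk arrays.

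Without the 1 wk arrays, GSTA2 was -0.03 in the mean, 0.07 early minus late, -0.0124 in the slope and -0.08 in the dye term (adjusted p = 0.0711). Without the 3, 9 or 11 wk arrays its dye term was -0.06 (0.169, 0.151 and 0.183). Features called in the mean were 45 without the 1 wk and 61 without the 5 wk arrays, with 1 list gene each, and 0 without the 3, 7, 9 or 11 wk arrays. Without the 9 wk arrays 1 feature was called in the slope, and without the 11 wk arrays 3171 in the dye term.

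Leaving out 1 array at a time, MGST1 ranged from -0.54 to 0.16 at 9 wk, from 0.33 to 0.56 early minus late and from -0.22 to -0.12 in the dye term. GSTA2 ranged from -0.24 to 0.06 at 5 wk (below without replicate 4, above without replicate 3), from 0.13 to 0.23 early minus late and from -0.09 to -0.06 in the dye term. GPX3 early minus late ranged from -0.29 to -0.12. Features called ranged from 0 to 1 at 1 wk, 0 (without 3 wk replicate 4) to 265 at 3 wk, 0 to 4 at 5 wk, 0 to 424 (without 7 wk replicate 3) at 7 wk, 0 to 10 at 11 wk, 0 to 172 (without 5 wk replicate 2) in the mean and 0 to 1 in the slope. List genes called ranged from 0 to 1 at 3 wk, 0 to 4 at 7 wk and 0 to 1 in the mean. The HPGDS mean ranged from -0.15 to 0.05, and early minus late from -0.25 to 0.05 for PRDX1, -0.24 to 0.00 for AKR1B1 and -0.20 to 0.05 for SEPSECS.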
